A study of Mus musculus with 10 samples.

Results

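Endothelial cells line blood and lymph vessels, and 10 genes that mark them were followed across salivary glands of NOD/ShiLtJ mice: Tie1, Cdh5, Kdr, Pecam1, Tek, Flt1, Vwf, Eng, Emcn and Esam. The genes were taken as a list of known endothelial markers, and the brightest probe set assigned to a single gene symbol stood for each. All 10 were found among the 18826 genes tested, each with 1 such probe set, and each lay above the 25th percentile of its array on all 10 arrays. The mice were female NOD/ShiLtJ, in which diabetes arises spontaneously by autoimmunity and lymphocytes infiltrate the salivary glands. There were 4 mice with type 1 diabetes at 21 weeks of age, 3 nondiabetic mice at 21 weeks and 3 nondiabetic mice at 6 weeks, with 1 array per mouse. The sample titles call these groups T_S, SS and Young, in that order. In every group salivary tissue was dissociated enzymatically (dispase II, collagenase IV), cells were passed through a filter and RNA was extracted, and the labels do not say which salivary gland was taken or what treatment, if any, the diabetic mice received. The samples are bulk, so fewer endothelial cells and less RNA per endothelial cell cannot be told apart.

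Endothelial cells read growth and stability signals through receptor tyrosine kinases. Kdr (VEGFR2) is the main signalling receptor for VEGF-A, Flt1 (VEGFR1) binds VEGF tightly and also acts as a decoy, Tek (Tie2) is the angiopoietin receptor, and Tie1 is its orphan partner. Cdh5 (VE-cadherin), Pecam1 and Esam hold neighbouring endothelial cells together, Eng is a co-receptor for TGF-β and BMP ligands, and Emcn is a sialomucin of capillaries and veins. Vwf encodes von Willebrand factor, the adhesive glycoprotein that endothelial cells and platelets store for haemostasis.

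No gene among the 10 had an adjusted p under 0.05 in limma's test in any comparison. Vwf showed the largest difference of the 10 with diabetes, at 1.06 ± 0.27 (SE) on the log2 scale above nondiabetic mice of the same age. Between 6 and 21 weeks in nondiabetic mice all 10 genes had lower group means, with a median difference of −0.45 on the log2 scale, and Tie1, Cdh5 and Kdr did not overlap between those groups. On nondiabetic 21-week array 3, the array least like the rest, all 10 genes lay below their group mean. Diabetic mice at 21 weeks also had lower means than 6-week mice for 9 of the 10 genes, Vwf being the exception. Values are deposited log2 intensities of single probe sets, so levels are compared between arrays and not between genes.

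**Figure D1:**
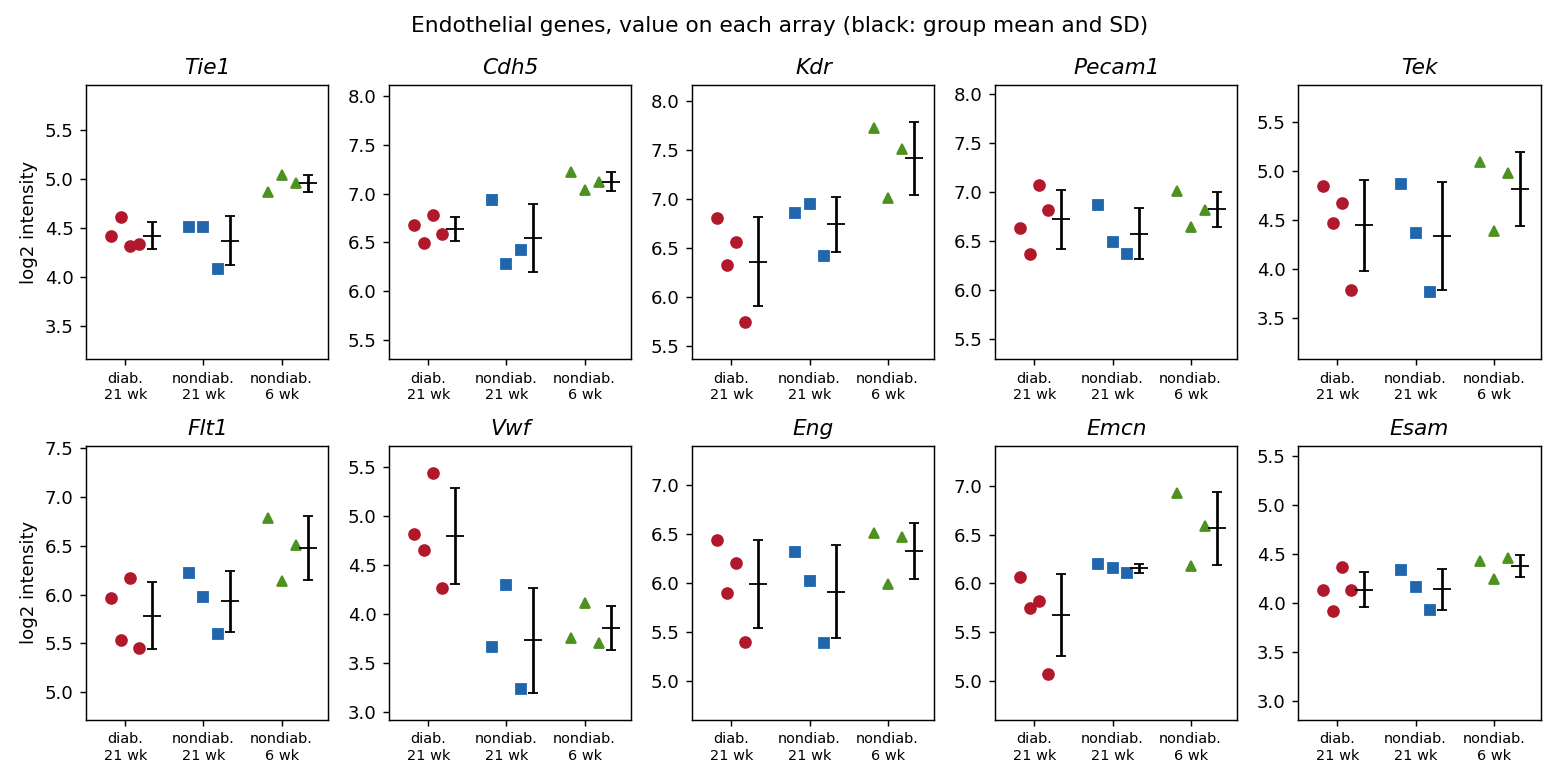
Log2 intensity of each of the 10 endothelial genes (vertical axis) in every array, with 1 point per mouse, the horizontal bar at the group mean and the error bar showing the SD, for diabetic 21-week (n = 4), nondiabetic 21-week (n = 3) and nondiabetic 6-week (n = 3) mice. Vwf lies highest in the diabetic mice, while Tie1, Cdh5 and Kdr lie highest in the 6-week mice.

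The promoters of Tie1, Kdr and Emcn are shown because these genes had the smallest p-values for a lower level in diabetic than in 6-week mice. Each is the 250 bases before the annotated start in the RefSeq table of build GRCm38.p6, printed 5′ to 3′ on the gene's strand, with matches to GGAA (or its reverse complement TTCC), the core that ETS-family factors bind, in capitals. The Tie1 window is chr4:118489850-118490099 on the minus strand, that of Kdr is chr5:75978456-75978705 on the minus strand, and that of Emcn is chr3:137340828-137341077 on the plus strand.
Tie1: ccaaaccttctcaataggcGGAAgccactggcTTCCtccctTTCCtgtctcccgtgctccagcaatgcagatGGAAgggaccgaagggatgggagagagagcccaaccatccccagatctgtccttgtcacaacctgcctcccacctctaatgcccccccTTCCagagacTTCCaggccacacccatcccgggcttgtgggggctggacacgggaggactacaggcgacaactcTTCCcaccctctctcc
Kdr: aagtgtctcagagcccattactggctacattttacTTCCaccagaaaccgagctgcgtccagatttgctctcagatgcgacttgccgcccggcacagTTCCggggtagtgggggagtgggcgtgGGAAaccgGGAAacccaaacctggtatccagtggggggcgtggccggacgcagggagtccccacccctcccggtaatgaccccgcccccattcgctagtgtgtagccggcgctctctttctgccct
Emcn: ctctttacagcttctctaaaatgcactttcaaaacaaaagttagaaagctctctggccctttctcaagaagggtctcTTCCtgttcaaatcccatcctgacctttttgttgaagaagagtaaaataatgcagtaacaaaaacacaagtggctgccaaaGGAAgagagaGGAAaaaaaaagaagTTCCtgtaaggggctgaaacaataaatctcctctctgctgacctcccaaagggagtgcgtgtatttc

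ETS factors such as Erg and Fli1 are regulators of endothelial genes, which is why this core was searched. RefSeq promoters were found for 6 of the 10 genes: Tie1, Kdr, Tek, Flt1, Eng and Emcn. Over both strands GGAA occurred 7 times before Tie1, 4 times before Kdr, Flt1 and Emcn, 3 times before Eng and 2 times before Tek. All 6 windows held the core, but so did 93.4% of all 32851 promoters of this length in the table, with a median of 3 matches. The longer form CCGGAA, which contains the core, was in 1 of 6 (Kdr) against 12% of all promoters. The GATA form AGATAA was in 0 of 6 against 9.99%, the SOX form ACAAAG in 2 of 6 (Tek and Eng) against 16.5%, and TATAAA in 1 of 6 (Flt1) against 12.4%. Base composition differed among the windows, from 40.8% G and C before Emcn to 70.4% before Flt1, against a median of 52.4% over the table. These matches describe letters and not binding sites.

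The arrays as a whole bear on the values below. Nondiabetic 21-week array 3 was the least like the rest: its correlation with any other array was at most 0.93 and as low as 0.901, whereas the remaining 9 correlated at 0.94 to 0.975. All 10 endothelial genes were below their group mean on that array, by 0.313 on average (a mean deviation of −0.313), and 9 of 10 were below it on diabetic array 4 (−0.336). The summed leukocyte markers were also highest on diabetic array 4, where the mean of 14 such genes was 6.33 against 5.13 to 5.26 in the other diabetic mice. What part these array-wide differences have in the results was not tested. P-values measure only the spread between these samples, which the labels number separately within each group and which were read as separate mice.

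The first comparison asked how glands of diabetic mice differed from those of nondiabetic mice of the same age. Vwf in the diabetic mice was 4.82, 4.65, 5.44 and 4.26 on the log2 scale, and in the nondiabetic mice it was 3.66, 4.29 and 3.23. Every diabetic array but array 4 lay above all nondiabetic arrays, and array 4 lay just under nondiabetic array 2, so the groups overlapped by that pair. The difference was 1.06 ± 0.27 (SE; 95% interval 0.47 to 1.66; 2.09-fold) with a limma adjusted p of 0.0805. Vwf passed the threshold when diabetic array 4 was left out (1.24, adjusted p = 0.0479) and when nondiabetic array 2 was left out (1.35, adjusted p = 0.0392), and in no other alternative for this comparison. Over the 19 alternatives its difference ranged from 0.81 to 1.35 and its limma adjusted p from 0.0392 to 0.273. The smallest difference, 0.81, came without nondiabetic array 3, which had the lowest Vwf value.

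Emcn was the only gene of the 10 whose arrays did not overlap between diabetic and nondiabetic mice. Its level was 6.07, 5.74, 5.82 and 5.08 in diabetic mice and 6.20, 6.15 and 6.11 in nondiabetic mice. The nondiabetic values lay close together, with an SD of 0.04, and the diabetic values spread below them, array 4 being lowest. The difference was −0.48 ± 0.22 (SE; 1.39-fold) with a limma adjusted p of 0.315. Genes lower in every diabetic than in every nondiabetic array made up 4.98% of all genes tested, and genes higher in every diabetic array 9.11%, against 1 and 0 of the 10 endothelial genes.

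The remaining receptors did not separate the 21-week groups. Kdr was 6.81, 6.33, 6.56 and 5.74 in diabetic mice and 6.86, 6.95 and 6.42 in nondiabetic mice. The groups overlapped, with diabetic array 4 lowest, and the difference was −0.38 ± 0.24 (95% interval −0.91 to 0.15; limma adjusted p = 0.47). Flt1 differed by −0.15 (95% interval −0.61 to 0.31), Tek by 0.11 (−0.51 to 0.73) and Tie1 by 0.053 (−0.25 to 0.36), with limma adjusted p-values of 0.776 to 0.886. The intervals of Flt1, Tek and Kdr leave room for differences of more than 0.5 on the log2 scale in at least 1 direction, and that of Tie1 is narrower.

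The junction genes and Eng also overlapped between diabetic and nondiabetic mice of 21 weeks. Cdh5 differed by 0.090 (95% interval −0.25 to 0.43), Pecam1 by 0.15 (−0.24 to 0.53) and Esam by −0.0040 (−0.31 to 0.30). Eng differed by 0.077 (−0.48 to 0.64). These 4 genes had limma adjusted p-values from 0.737 to 0.993.

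Counted together for diabetes, 0 of the 10 genes were called at an adjusted p under 0.05, where 1.44% of all genes were called. At an unadjusted p under 0.05 it was 2 of 10 (Vwf higher, Emcn lower), against 15.8% of all genes. The median difference of the 10 genes was 0.065, beside 0.035 over all genes, and 4 of 10 were negative beside 44.0% of all genes. The 10 genes thus lay near the background of this comparison on each of these counts.

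**Figure D2:**
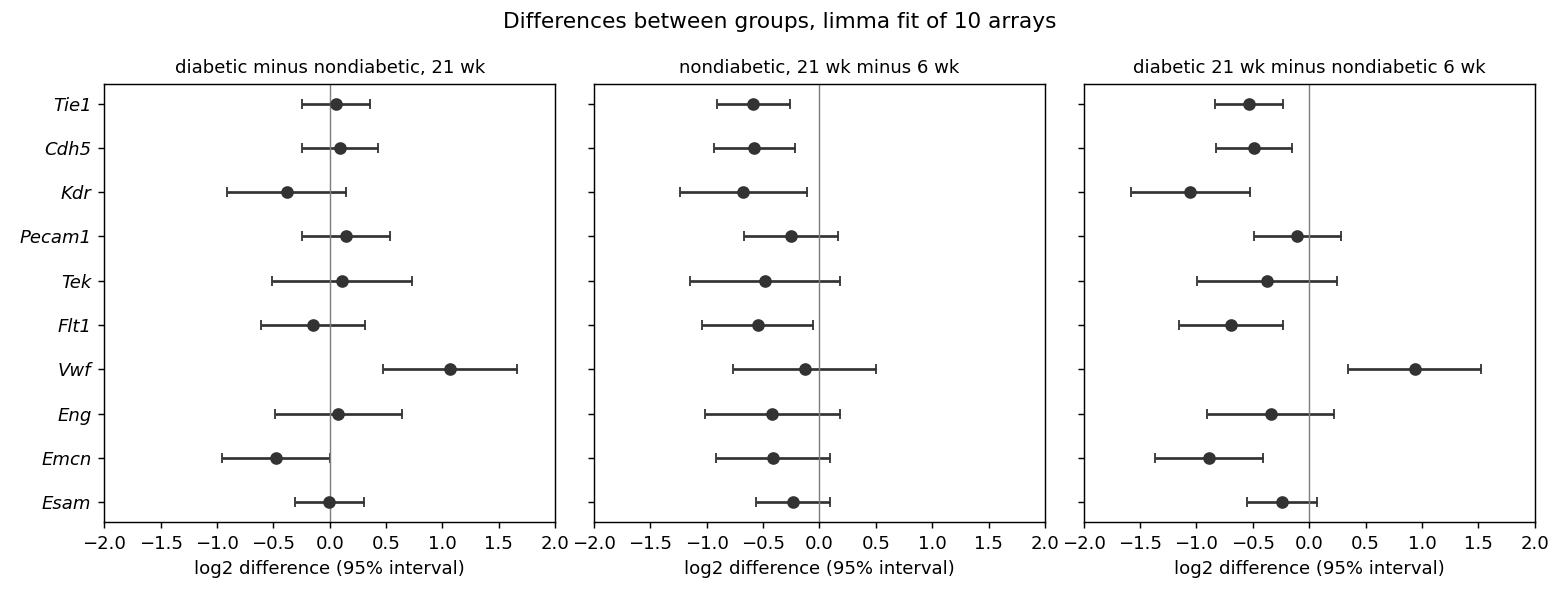
Difference in log2 intensity for each of the 10 genes in the 3 comparisons (horizontal axis), with points at the limma estimate and bars spanning the 95% interval. Vwf lies at 1.06 for diabetes, and Kdr, Emcn, Tie1 and Cdh5 lie below 0 against the 6-week mice.

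The second comparison set nondiabetic mice at 21 weeks against those at 6 weeks within this strain. The sample titles mark the older mice SS and the younger ones Young, so age and any condition meant by SS cannot be told apart. This comparison shares the nondiabetic 21-week mice with the comparison above, so low values in those 3 arrays enter both. Tie1 was 4.51, 4.52 and 4.08 at 21 weeks and 4.86, 5.04 and 4.96 at 6 weeks. All 21-week arrays lay below all 6-week arrays, array 3 of the older group lowest. The difference was −0.59 ± 0.15 (SE; 95% interval −0.91 to −0.26; 1.503-fold) with a limma adjusted p of 0.474.

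Cdh5, the adherens-junction cadherin, was 6.93, 6.28 and 6.42 at 21 weeks and 7.22, 7.03 and 7.11 at 6 weeks. Kdr was 6.86, 6.95 and 6.42 at 21 weeks and 7.73, 7.01 and 7.51 at 6 weeks. Neither overlapped between the ages, although Kdr in nondiabetic 21-week array 2 and 6-week array 2 were only a little apart. Cdh5 differed by −0.58 ± 0.17 (limma adjusted p = 0.506) and Kdr by −0.68 ± 0.26 (limma adjusted p = 0.629).

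Flt1 was 6.22, 5.97 and 5.60 at 21 weeks and 6.78, 6.14 and 6.51 at 6 weeks. The highest older value exceeded the lowest younger one, so the ages overlapped, and the difference was −0.55 ± 0.23 (limma adjusted p = 0.632). Tek, Eng, Emcn, Pecam1 and Esam differed by −0.48, −0.42, −0.41, −0.25 and −0.24, each with an interval that included 0 and a limma adjusted p of 0.723 to 0.789. Vwf differed least, by −0.13 ± 0.29 (limma adjusted p = 0.944), and its sign turned when nondiabetic 21-week array 3 was left out (0.12). The smallest differences over the 19 alternatives were −0.16 for Eng, −0.20 for Tek, −0.15 for Pecam1, −0.13 for Esam and −0.23 for Emcn. For Flt1, Tie1, Cdh5 and Kdr they were −0.38, −0.44, −0.45 and −0.51.

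For age, 0 of 10 genes were called beside 0.0266% of all genes, which is only 5 genes. At an unadjusted p under 0.05 it was 4 of 10, all lower at 21 weeks (Tie1, Cdh5, Kdr and Flt1), against 7.47% of all genes in either direction. No overlap with lower values at 21 weeks was found for 3 of 10, against 9.73% of all genes. All 10 differences were negative, where 61.8% of all genes were, and their median of −0.45 stood beside −0.057 over all genes. Some lists described below were lower at 21 weeks as well. Negative were 13 of 13 fibroblast genes (median −0.65), 16 of 18 vascular basement membrane genes (−0.51) and 16 of 21 mural cell genes (−0.21). In contrast, 13 of 14 leukocyte genes and 13 of 20 epithelial genes were higher. The 10 genes are not independent, as they varied together between mice of a group.

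The same 6-week mice were also set against the diabetic 21-week mice, a comparison in which age and disease cannot be told apart. Kdr was 5.74 to 6.81 in the 4 diabetic mice and 7.01 to 7.73 in the 6-week mice, without overlap. It differed by −1.06 ± 0.24 (SE; 95% interval −1.58 to −0.53; 2.08-fold), the lowest adjusted p of the 10 genes at 0.0553 in limma. Under the alternatives its adjusted p ranged from 0.0267 to 0.204 and passed in 7 of 19, including quantile normalization (−1.12, limma adjusted p = 0.037) and the fit without both diabetic array 4 and nondiabetic 21-week array 3 (−0.85, limma adjusted p = 0.0374). Leaving out diabetic array 1 also brought it past the threshold, at −1.21 (limma adjusted p = 0.0412).

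Emcn was 5.08 to 6.07 in diabetic mice and 6.93, 6.18 and 6.59 in 6-week mice, again with no overlap. The difference was −0.89 ± 0.22 (SE; 1.85-fold; limma adjusted p = 0.0713), past the threshold in 3 of 19 alternatives. Tie1 was 4.42, 4.62, 4.32 and 4.33 in diabetic mice, all below the 6-week arrays, and differed by −0.53 ± 0.14 (limma adjusted p = 0.0847), past the threshold in 2 of 19 alternatives. Cdh5 was 6.68, 6.49, 6.78 and 6.59 in diabetic mice, also below every 6-week array, and differed by −0.49 ± 0.16 (limma adjusted p = 0.159).

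Flt1 was 5.97, 5.54, 6.17 and 5.46 in diabetic mice, and 1 of these values lay above the lowest 6-week array. Its difference was −0.69 ± 0.21 (limma adjusted p = 0.14). Tek, Eng, Esam and Pecam1 differed by −0.37, −0.34, −0.24 and −0.10, with limma adjusted p-values of 0.462 to 0.836 and overlapping groups. Vwf went the other way. It was 3.76, 4.11 and 3.70 at 6 weeks, below every diabetic array, and was higher in diabetic mice by 0.93 ± 0.27 (limma adjusted p = 0.124), past the threshold in 2 of 19 alternatives.

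Against 6-week mice, 0 of 10 genes were called in diabetic mice beside 1.44% of all genes, and 6 of 10 had an unadjusted p under 0.05 beside 14.9%. Genes lower in every diabetic array were 4 of 10 (Tie1, Cdh5, Kdr and Emcn) beside 8.49% of all genes, and 1 of 10 (Vwf) was higher in every diabetic array beside 8.2%. Differences were negative for 9 of 10 genes beside 54.0% of all genes, with a median of −0.43 beside −0.022.

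With both 21-week groups averaged against the 6-week mice, an arrangement added after the data were seen, Tie1 differed by −0.56 ± 0.13 (limma adjusted p = 0.134), Kdr by −0.87 ± 0.22 (0.206) and Cdh5 by −0.53 (0.238). Again 0 of 10 were called, against 0.112% of all genes, and 5 of 10 had an unadjusted p under 0.05, against 9.73% of all genes. Tie1, Cdh5 and Kdr were lower in all 7 older mice than in all 3 younger mice, and 2.76% of all genes were.

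**Figure D3:**
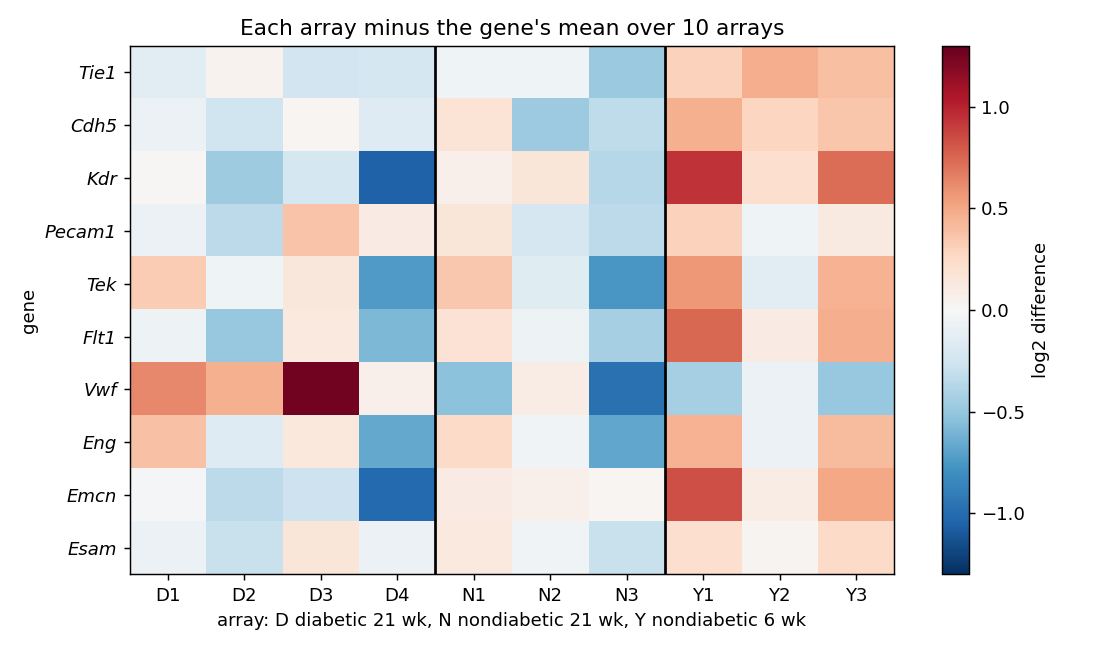
Each gene's log2 intensity minus its mean over all 10 arrays (colour), with genes in rows and arrays in columns grouped by diabetic 21-week, nondiabetic 21-week and nondiabetic 6-week mice. Most genes are highest in 6-week arrays 1 and 3 and low on diabetic array 4 and nondiabetic 21-week array 3, while the Vwf row is highest on diabetic arrays 1 to 3.

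Within groups the genes moved together from mouse to mouse. After subtracting group means, 42 of the 45 gene pairs had a positive Pearson r over the 10 arrays, with a median of 0.488. These arrays share library and array-wide differences, so the values are descriptive. Pairs of genes outside the list were not taken as a background, so the values are not shown to be particular to these genes. Tek and Eng were closest (r = 0.984), followed by Kdr with Eng (0.931), Kdr with Emcn (0.926) and Pecam1 with Esam (0.92). Tie1 followed the others least, with a mean r of 0.149 to the other 9 genes. On diabetic array 3 and nondiabetic 21-week array 1, 9 of 10 genes lay above the group mean, and on 6-week array 2 only 2 did.

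With group means kept, Vwf was the gene that parted from the rest. Its mean r to the other 9 genes was −0.0808, lowest with Emcn (−0.436), whereas the 36 pairs without Vwf all had a positive r, from 0.192 to 0.987. After subtracting group means Vwf had a mean r of 0.358, above that of Tie1 (0.149). The low r with group means kept thus restates the group difference of Vwf given above. The log2 difference between Vwf and the mean of the other 9 genes was −0.96, −0.83, −0.33 and −0.998 in diabetic mice. It was −2.24, −1.36 and −2.11 in nondiabetic 21-week mice and −2.53, −1.74 and −2.45 in 6-week mice. Its size mixes probe sets and is not read, but each diabetic mouse lay above each nondiabetic mouse of either age, including diabetic array 4. This difference was formed after the values were seen and was not tested.

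**Figure D4:**
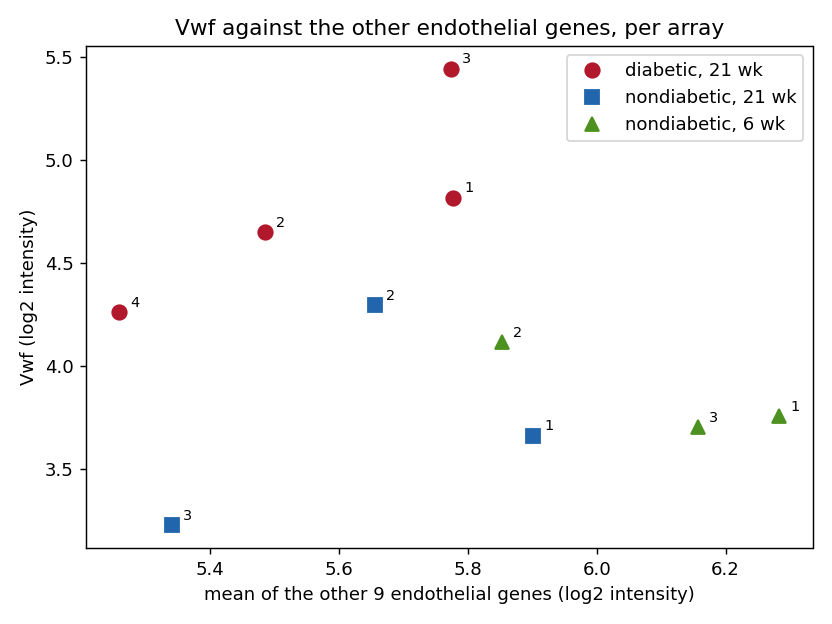
Vwf log2 intensity (vertical axis) against the mean log2 intensity of the other 9 endothelial genes (horizontal axis), with 1 point per mouse and group shown by colour. Diabetic mice 1 to 3 lie above all nondiabetic mice, and diabetic mouse 4 (Vwf 4.26) has the lowest value of the other 9 genes (5.26).

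By mean Pearson r with the 10 genes over the 10 arrays, the gene outside the list most like it with group means kept was Adgrl4 (0.727), an adhesion receptor of endothelial cells, followed by 1700094D03Rik (0.718), Spast (0.705), Clec14a (0.701) and Igfbp7 (0.701). Ptprb (0.699), Emx1 (0.694), Myct1 (0.693), Rbp7 (0.693) and Col4a1 (0.692) completed the first 10. Of these, Adgrl4, Clec14a and Myct1 stood in the list of other endothelial genes. Ptprb, the endothelial phosphatase of Tek, stood in the list of signalling partners and Col4a1 in that of vascular basement membrane. With group means subtracted, the leading genes were Gm15417 (0.721), Acp6 (0.721), Bex3 (0.718), Myct1 (0.71) and Kptn (0.709), then Ednrb (0.708), Kcnh1 (0.705), Tnks1bp1 (0.703), Itsn1 (0.702) and Lbp (0.702). Myct1 was the only gene among the first 10 by both measures.

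A wider set of endothelial genes gave the same count of calls. Of 43 further endothelial genes, 41 were measured and 0 were called in any of the 3 comparisons in limma. For age, 35 of 41 differences were negative and 9 of 41, all lower at 21 weeks, had an unadjusted p under 0.05 beside 7.47% of all genes in either direction, with a median difference of −0.28 beside −0.057 over all genes. For diabetes the median was 0.047, and 6 of 41 had an unadjusted p under 0.05, 5 of them higher, beside 15.8% of all genes. For diabetic against 6-week mice it was 10 of 41, 8 of them lower, beside 14.9%. Stab1, a scavenger receptor of sinusoidal endothelium and some macrophages, had the smallest p for diabetes, at 0.68 ± 0.17 (limma adjusted p = 0.0691). Cldn5, the endothelial tight-junction claudin, differed by 0.45 ± 0.23 with diabetes (limma adjusted p = 0.365).

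Ligands and partners of the receptors were followed in a list of 28 genes, of which 27 were measured. With diabetes 2 rose and 0 fell. Nrp2, a co-receptor for VEGF family ligands and semaphorins, was 4.10, 4.31, 4.10 and 4.31 in diabetic mice and 3.76, 3.33 and 3.36 in nondiabetic mice of the same age. The groups were well apart, and the difference was 0.72 ± 0.14 (limma adjusted p = 0.0306). At 6 weeks Nrp2 was 4.14, 3.80 and 3.90, with a mean between those of the 21-week groups. Vegfd, a lymphangiogenic VEGF that binds Flt4, rose by 0.82 ± 0.18 (limma adjusted p = 0.0463), from 3.30 ± 0.32 (SD, n = 3) to 4.12 ± 0.25 (SD, n = 4).

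Vegfa, the principal ligand of Kdr and Flt1, was 6.35 ± 0.21 (SD, n = 4) in diabetic mice, 6.58 ± 0.14 (SD, n = 3) in nondiabetic 21-week mice and 6.44 ± 0.06 (SD, n = 3) in 6-week mice. Its difference with diabetes was −0.24 (limma adjusted p = 0.425). The Tek ligand Angpt1 differed by 0.26 (limma adjusted p = 0.47), the lymphatic VEGF receptor Flt4 by 0.12 (0.698), and Angpt2, under the 25th percentile on 2 arrays of every group, by 0.11 (0.883). Nrp1, the VEGF-A co-receptor, was lower at 21 than at 6 weeks by a similar amount in nondiabetic mice (−0.61, limma adjusted p = 0.523) and in diabetic mice (−0.62, limma adjusted p = 0.0995). Against 6-week mice, 0 of 27 partners were called for either older group. An unadjusted p under 0.05 was found for 5 of 27 (diabetic) and 4 of 27 (nondiabetic), beside 14.9% and 7.47% of all genes.

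Among 12 genes of capillary lipid handling, 2 rose with diabetes and 0 fell. Cd36, a fatty acid transporter of capillaries that adipocytes and macrophages also express, was 6.85, 6.76, 7.58 and 7.19 in diabetic mice and 5.60, 5.74 and 5.45 in nondiabetic mice. Every diabetic array lay above every nondiabetic one, and the rise was 1.505 ± 0.23 (2.84-fold; limma adjusted p = 0.00773). Fabp4, a fatty acid binding protein of the same cell types, rose by 1.37 ± 0.24 (limma adjusted p = 0.015). In 6-week mice the means of Cd36 (6.34) and Fabp4 (7.41) lay between those of the 21-week groups. Fabp5 fell by 0.87 between 6-week and diabetic mice (limma adjusted p = 0.0379), a call that ended when its probe sets were averaged (−0.70, limma adjusted p = 0.05045), and another of its probe sets differed by −0.33 (limma adjusted p = 0.283).

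Of 19 measured genes of vessel tone and haemostasis, 1 rose with diabetes. Klf4, a transcription factor of flow-exposed endothelium that epithelium also expresses, rose by 1.16 ± 0.14 (limma adjusted p = 0.00175), and by 0.84 against 6-week mice (limma adjusted p = 0.0151). Nos3, the endothelial nitric oxide synthase, differed by −0.034 (limma adjusted p = 0.954). Of 16 genes of activated endothelium and high endothelial venules, Cxcl13, a B cell chemokine made mainly by stromal and follicular cells, was the only call, rising by 3.35 ± 0.48 with diabetes (limma adjusted p = 0.00482) and by 2.83 against 6-week mice (limma adjusted p = 0.014). Ackr1, a chemokine receptor of venules, was below the 25th percentile on 2 diabetic, 2 nondiabetic 21-week and 3 6-week arrays.

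Of 9 lymphatic genes 1 was called. Fgl2, which macrophages and T cells also express, rose by 1.20 with diabetes (limma adjusted p = 0.0354) and by 1.56 against 6-week mice (limma adjusted p = 0.0106). Prox1, the defining lymphatic transcription factor, differed by −0.19 (limma adjusted p = 0.635) and was under its array's 25th percentile 2 times in 10. It was the only negative difference of the 9 with diabetes, where the median was 0.19. Lyve1, a hyaluronan receptor of lymphatic endothelium and some macrophages, named after its values were seen, was higher in every diabetic array than in every nondiabetic 21-week array (0.98, limma adjusted p = 0.102). Of 18 vascular basement membrane genes, the laminin chains Lama4 and Lama5 rose with diabetes, by 0.86 ± 0.17 (limma adjusted p = 0.0271) and 0.72 ± 0.16 (limma adjusted p = 0.0445). Sparc, a matrix glycoprotein of endothelium and fibroblasts, fell by 1.10 between 6-week and diabetic mice (limma adjusted p = 0.0355) and differed by −1.03 between 6 and 21 weeks in nondiabetic mice (limma adjusted p = 0.363).

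Cell types around or beside the endothelium were read from their own lists. Of 21 mural cell genes 3 rose with diabetes and 0 fell, beside 1.44% of all genes called. They were Acta2 by 1.26 ± 0.25 (limma adjusted p = 0.0288), Myh11 by 0.91 ± 0.17 (0.0243) and Abcc9 by 0.68 ± 0.15 (0.0482). The mean of Abcc9 was 5.14 in diabetic, 4.47 in nondiabetic 21-week and 5.06 in 6-week mice. Acta2 is also a marker of the myoepithelial cells of salivary glands, and it rose by 1.18 against 6-week mice (limma adjusted p = 0.0365). Pdgfrb, the pericyte receptor, differed by 0.76 with diabetes (limma adjusted p = 0.0922). Its mean was 4.53 in diabetic, 3.77 in nondiabetic 21-week and 4.34 in 6-week mice. Over the list 12 differences were positive and 9 negative, with a median of 0.059. Kcnj8, whose channel subunit pairs with that of Abcc9, differed by −0.049 (limma adjusted p = 0.924) and Higd1b, a pericyte marker, by −0.36 (limma adjusted p = 0.296), both chosen for naming after their values were seen.

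Platelets and megakaryocytes also make von Willebrand factor, and 8 of 14 platelet genes were measured. None was called, and 2 of 8 had an unadjusted p under 0.05 with diabetes, beside 15.8% of all genes. The mean of the list was 3.71 to 4.03 in diabetic, 3.64 to 3.999 in nondiabetic 21-week and 3.74 to 3.99 in 6-week mice. Gp5, with the smallest p of the list, differed by −0.43 with diabetes (limma adjusted p = 0.203), Pf4 by 0.62 (0.255) and Itga2b by 0.15 (0.613). The part of platelets in the Vwf values was not tested. Of 10 erythroid genes 3 were measured, with 0 calls and 0 at an unadjusted p under 0.05, and Epb42 had the smallest p with diabetes (−0.27, limma adjusted p = 0.376).

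Leukocyte markers were averaged on each array. The mean of 14 pan-leukocyte genes was 5.13 to 6.33 in diabetic, 4.71 to 5.39 in nondiabetic 21-week and 4.49 to 4.62 in 6-week mice, so every array of both older groups lay above the younger ones. Of the 14 differences, 13 were positive with diabetes (median 0.41), 13 with age (median 0.47) and 14 in diabetic against 6-week mice (median 0.89). Diabetic arrays 1 to 3 had list means of 5.13 to 5.26, inside the nondiabetic 21-week range, and only array 4 (6.33) lay above it. Ptprc (CD45), the pan-leukocyte phosphatase, differed by 1.23 between 21 and 6 weeks in nondiabetic mice (limma adjusted p = 0.629), by 1.92 in diabetic against 6-week mice (limma adjusted p = 0.0674) and by 0.69 with diabetes (limma adjusted p = 0.5). In diabetic mice Ptprc was 5.80, 5.96, 5.84 and, on array 4, 8.10. Cd53, a leukocyte tetraspanin, was the list's only call, rising by 1.71 ± 0.34 against 6-week mice (limma adjusted p = 0.0315), and Vav1 had its smallest p with diabetes (0.58, limma adjusted p = 0.276). Pecam1 and Eng are also expressed by some leukocytes, and the part of these cells in the endothelial values was not tested.

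Fibroblast and epithelial markers were measured in the same way. The mean of 13 fibroblast genes was 5.83 to 6.31 in diabetic, 4.67 to 5.50 in nondiabetic 21-week and 5.13 to 6.54 in 6-week mice, higher in every diabetic than in every nondiabetic mouse of 21 weeks and lowest on nondiabetic array 3. None of the 13 was called, and Fbln1 was the closest with diabetes (0.80, limma adjusted p = 0.0502). In that comparison 8 of 13 had an unadjusted p under 0.05, beside 15.8% of all genes. The mean of 20 salivary epithelial genes was 7.13 to 7.49 in diabetic, 7.27 to 7.39 in nondiabetic 21-week and 7.18 to 7.35 in 6-week mice. In that list the ductal transcription factor Ascl3 fell by 1.24 with diabetes (limma adjusted p = 0.0104) and Cldn3 rose by 0.65 (0.0268), while Cldn3 (0.69, limma adjusted p = 0.0228) and Cldn4 (0.73, limma adjusted p = 0.0458), tight-junction claudins, rose against 6-week mice. Among 16 hypoxia-responsive genes, Pfkfb3 and P4ha1 rose with diabetes, by 0.995 (limma adjusted p = 0.0308) and 0.77 (0.0329). Over that list 10 differences were positive and 6 negative, with a median of 0.053 beside 0.035 over all genes.

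**Figure D5:**
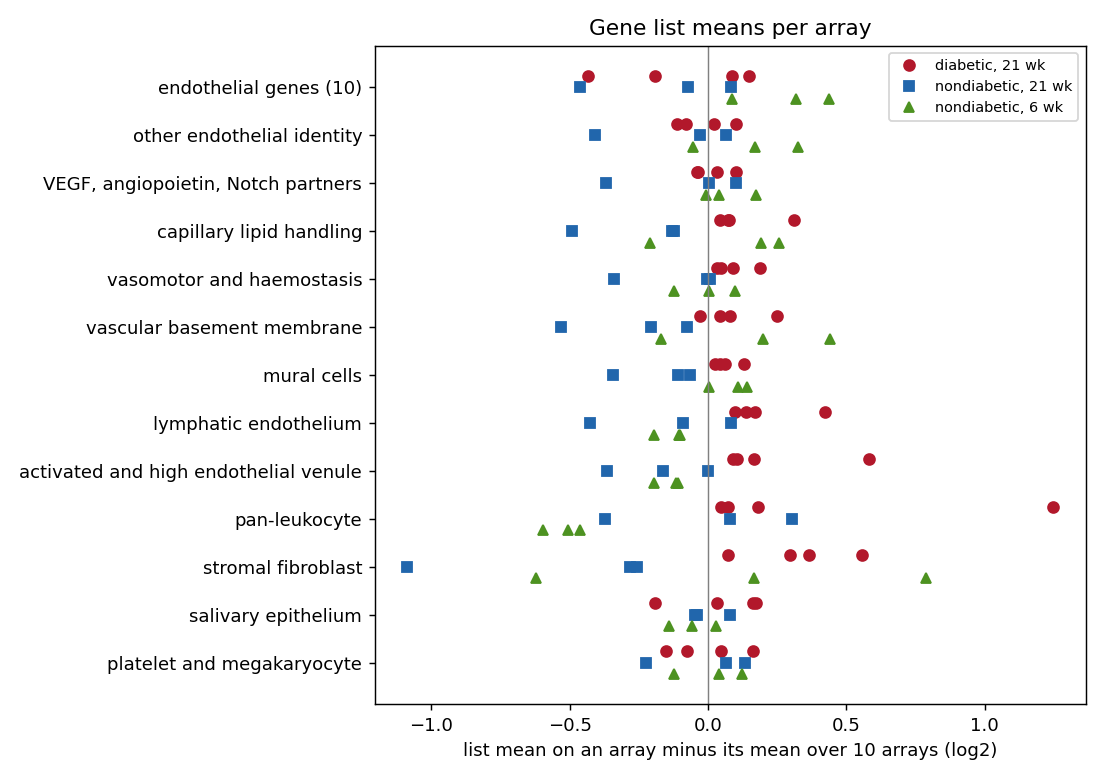
Mean log2 intensity of a gene list on each array minus that list's mean over the 10 arrays (horizontal axis), for 13 lists in rows, with 1 point per mouse and group shown by colour and shape. Leukocyte markers are lowest in the 6-week mice (list means of 4.49 to 4.62). Fibroblast markers are higher in diabetic (5.83 to 6.31) than in nondiabetic 21-week mice (4.67 to 5.50). The 10 endothelial genes reach furthest right in the 6-week mice (5.679 to 6.03), which overlap diabetic arrays 1 (5.681) and 3 (5.74).

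The mean of the 10 endothelial genes was 5.16 to 5.74 in diabetic, 5.13 to 5.68 in nondiabetic 21-week and 5.68 to 6.03 in 6-week mice. Of the calls named for the wider lists with diabetes, those of Cd36, Klf4, Cxcl13 and Ascl3 held when each array of the 2 groups was left out in turn, and each of the others ended without at least 1 array. Every call named against 6-week mice also ended without at least 1 array. Nrp2 and Vegfd each kept their call in 2 of the 7 fits that left out 1 array. Nrp2 lost it without diabetic array 2 (limma adjusted p = 0.0797), 3 (0.0717) or 4 (0.0534) and without nondiabetic array 2 (0.0913) or 3 (0.12). Vegfd lost it without diabetic array 1 (limma adjusted p = 0.0939), 2 (0.0751) or 3 (0.146) and without nondiabetic array 2 (0.12) or 3 (0.179).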

How the data were processed

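Biotin-labelled cDNA from 10 samples of salivary gland cells was read on Affymetrix arrays. Per the submitters' processing notes, the authors used RMA and Affymetrix Power Tools, and what they deposited is a log2 intensity for each probe set. RMA draws the arrays toward a common distribution, so a shift of most genes could be hidden. The deposited medians still differed, from 3.53 on nondiabetic 21-week array 3 to 3.69 on nondiabetic 21-week array 2. Versions, settings and the annotation build were not given in the sources used here.

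Of 41345 probe sets, 23521 had 1 gene symbol (23328 matched RefSeq by gene identifier), 1814 had several and 16010 were unnamed. Those above their array's 25th percentile in at least 3 arrays were kept, the brightest per gene, giving 18826 genes. All 10 arrays entered 1 fit with a mean per group in limma 3.58.1 under R 4.3.3 (7 residual and 5.61 prior degrees of freedom), tested two-sided, with Benjamini-Hochberg adjustment over all genes and a threshold of 0.05. Intervals are 95% intervals of that fit. The number of arrays limits the precision. The steps were tested on simulated data.

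The endothelial genes, 14 further lists and the tests were chosen with earlier results of these data known. Named genes were the endothelial genes, the genes past the threshold in each list (at most 4 per list and comparison, by p), the gene with the smallest p for diabetes where none passed, and 13 fixed genes. Likeness was ranked by mean Pearson r with the endothelial genes. Same-numbered samples did not deviate together (r of deviations −0.118 to 0.066), so numbers were not taken to pair them. Alternatives were other filters, probe set rules, variance models, array weights, scaling, a stricter threshold, the replicate block, and leaving out arrays.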

Additional observations from a re-analysis of the deposited data

How the results depend on the processing

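Of the 10 endothelial genes, 0 passed the threshold for age under any of the 19 alternatives, and 0 for diabetes except Vwf in 2 fits that each left out 1 array (0 to 1 over the arrays left out). For diabetic against 6-week mice, 1 passed with a filter at each array's median, 1 with median centring, 2 with trended and robust variance, 4 with array weights, 3 with quantile normalization and 2 without both arrays that stand apart (diabetic array 4 and nondiabetic 21-week array 3), and 0 to 1 over single arrays left out. Over all genes, calls for diabetes were 271, and 161 with only the 2 groups fitted, 69 at an adjusted p under 0.01, 176 without both arrays and 84 to 267 with single arrays left out (84 without nondiabetic array 3). For age they were 5, and 0 with only the 2 groups fitted, 12 with trended and robust variance, 18 with array weights, 3 at an adjusted p under 0.01, 42 without both arrays, 21 with both 21-week groups averaged (added after seeing the data) and 1 to 10 with single arrays left out. For diabetic against 6-week mice they were 272, and 672 with array weights, 58 at an adjusted p under 0.01, 508 without both arrays and 48 to 265 with single arrays left out (48 without 6-week array 3). With only 2 groups fitted for age, 0 genes were called by limma. With the replicate block, 0 endothelial genes passed in each comparison, and 204, 4 and 206 of all genes did. Only diabetic array 4 bears the number 4, so the block also takes that array out of the differences. Blocking and loss of this array therefore cannot be told apart fully, and Nrp2 differed by 0.69 with diabetes in both fits. The block ended the calls of Nrp2 (0.69, limma adjusted p = 0.0795), Pfkfb3 (0.1), Abcc9 (0.121) and Lama5 (0.0726) with diabetes. Against 6-week mice it ended those of Sparc (0.0518), Klf4 (0.0573), Fabp5 (0.0649) and Cldn4 (0.14). Differences near 0 changed sign. For diabetes, Tie1 was −0.027 with array weights, −0.032 with quantile normalization and −0.062 without both arrays, and ranged from −0.091 to 0.13 with single arrays left out. Cdh5 was −0.041 with quantile normalization (−0.043 to 0.28 with single arrays left out) and Eng −0.088 (−0.18 to 0.28). Tek ranged from −0.17 to 0.38, Esam from −0.11 to 0.094 and Nos3 from −0.30 to 0.17 over single arrays left out, and Ptprc was −0.091 without both arrays. Pecam1 ranged from −0.22 to 0.014 (without diabetic array 2) against 6-week mice. Vwf for age was 0.081 with array weights, 0.12 without both arrays and 0.40 with both 21-week groups averaged, and ranged from −0.41 to 0.12 over single arrays left out. The other 9 genes stayed lower at 21 weeks under all 19. The causes were not tested. Each endothelial gene has 1 probe set, so probe set rules give it no second value.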
